A study of Arabidopsis thaliana with 77 samples.

Results

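The 1150 variants described here are single-base differences from the reference genome around the centromeres of Arabidopsis chromosomes 3 and 4, of 15725 such variants called anywhere in the nuclear genome. They were chosen by position and by call pattern. Each lies between 13000000 and 15000000 bp of chromosome 3 or between 3000000 and 5000000 bp of chromosome 4 (TAIR10). Each was called with the same base in 2 or more of 5 libraries and was never called homozygous. Of the 1150, 516 lie on chromosome 3 and 634 on chromosome 4. In the whole genome 5634 variants met the same sharing and zygosity conditions.

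Whole-genome libraries came from rosette leaves of 4-week-old Columbia plants, read in pairs on an Illumina HiSeq2000. Lines 2-69, 2-20, 3-72 and 3-75 are episuppressors labelled rdr1 rdr2 rdr6 ddm1, with mutations in 3 RNA-dependent RNA polymerase genes and in the chromatin remodeller DDM1. The fifth library is labelled rdr1 rdr2 rdr6, without ddm1. Each of the 5 is a single library of bulk leaf DNA, so every line was measured once and all 5 genotypes share the rdr1 rdr2 rdr6 mutations by label.

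The labels were set against the calls in RDR6 and DDM1. No call in RDR1 or RDR2 is given, so the rdr1 and rdr2 genotypes rest on the labels alone. Variants are written as the reference base, the TAIR10 position and the called base. A change in RDR6, G18352401A on chromosome 3, was called homozygous in all 5 libraries. A change in DDM1, G26652152A on chromosome 5, was called homozygous in all 4 lines, at 25, 14, 10 and 7 reads in 2-69, 2-20, 3-72 and 3-75. In the library labelled rdr1 rdr2 rdr6 it was called heterozygous, with 9 of 19 high-quality reads carrying the changed base. That call goes against a genotype without ddm1, so the fifth library is named below as the library labelled rdr1 rdr2 rdr6.

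Arabidopsis centromeres are built of long arrays of a short tandem satellite, on part of which the centromeric histone H3 variant sits. Heterochromatin rich in retrotransposons, pseudogenes and other tandem repeats flanks the arrays, and DDM1 is needed for DNA methylation and silencing there. The reference assembly holds only part of these arrays. Reads from copies that it lacks can align to the copies that it has. A heterozygous call in such sequence can therefore come from copies that differ or from homologous chromosomes that differ. The depth, read shares and repeat content given below do not separate the 2 sources, and which of them produced a call was not tested.

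The long unit and the satellite unit, the tandem repeats that held most of the variants inside repeats, are shown first. Bases are from the RefSeq TAIR10.1 sequence, in which the reference base matched at all 34875 nuclear calls, and capitals mark positions of variants in the set. The chromosome 4 satellite unit holds 4 such positions in 178 bases, and its best match beside centromere 3 was 89.3% identical. The long units are tandem repeats of about 500 bases described after them, of which 300 bases are shown for each.
Chromosome 3 long unit, plus strand, chr3:14210171-14210470: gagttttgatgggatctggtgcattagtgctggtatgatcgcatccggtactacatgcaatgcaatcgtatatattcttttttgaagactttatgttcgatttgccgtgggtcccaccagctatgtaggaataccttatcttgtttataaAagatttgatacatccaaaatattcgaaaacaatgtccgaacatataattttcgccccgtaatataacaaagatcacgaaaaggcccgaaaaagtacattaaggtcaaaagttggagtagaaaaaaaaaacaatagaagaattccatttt
Chromosome 3 satellite unit, minus strand, chr3:13589518-13589694: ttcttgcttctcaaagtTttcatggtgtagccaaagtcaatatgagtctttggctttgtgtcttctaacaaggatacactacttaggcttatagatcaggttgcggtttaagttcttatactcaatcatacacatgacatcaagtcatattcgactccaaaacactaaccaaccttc
Chromosome 4 long unit, plus strand, chr4:3057484-3057783: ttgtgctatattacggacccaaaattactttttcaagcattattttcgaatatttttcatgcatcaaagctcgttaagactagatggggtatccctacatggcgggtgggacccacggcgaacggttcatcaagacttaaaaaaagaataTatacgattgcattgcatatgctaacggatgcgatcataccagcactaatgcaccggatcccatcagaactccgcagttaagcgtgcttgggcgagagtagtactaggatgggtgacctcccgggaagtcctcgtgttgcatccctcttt
Chromosome 4 satellite unit, plus strand, chr4:3970124-3970301: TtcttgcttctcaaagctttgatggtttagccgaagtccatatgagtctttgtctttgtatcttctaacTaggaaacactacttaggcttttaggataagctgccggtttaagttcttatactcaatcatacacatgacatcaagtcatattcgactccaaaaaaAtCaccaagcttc

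Every library held most of the set. Called were 865 variants in 2-69, 874 in 2-20, 797 in 3-72, 846 in 3-75 and 901 in the library labelled rdr1 rdr2 rdr6, and the fewest were in the line with the lowest arm depth. Both centromeres held their variants in a few dense stretches. On chromosome 3 the fullest 10 kb, 14210000 to 14219999, held 53 variants, and on chromosome 4 the fullest, 3970000 to 3979999, held 68. The fullest 50-kb bin held 108 of 516 variants on chromosome 3 (20.9%), from 14200000 to 14249999, and 255 of 634 on chromosome 4 (40.2%), from 3950000 to 3999999. The 5 fullest of the 40 bins of each window held 68.2% of the chromosome 3 variants and 76.7% of the chromosome 4 variants. Chromosome 3 had no single centre. Its 5 fullest bins lay in 2 blocks, 13650000 to 13799999 and 14150000 to 14249999. On chromosome 4, 2 of the 5 fullest bins adjoined each other at 3950000 to 4049999 and the others lay apart at 3.85, 3.70 and 3.20 Mb. The median gap between neighbouring variants was 203 bp on chromosome 3 and 168 bp on chromosome 4. Gaps shorter than a read made up 34.2% of gaps on chromosome 3 and 39% on chromosome 4, so many neighbours were read by the same reads.

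**Figure D1:**
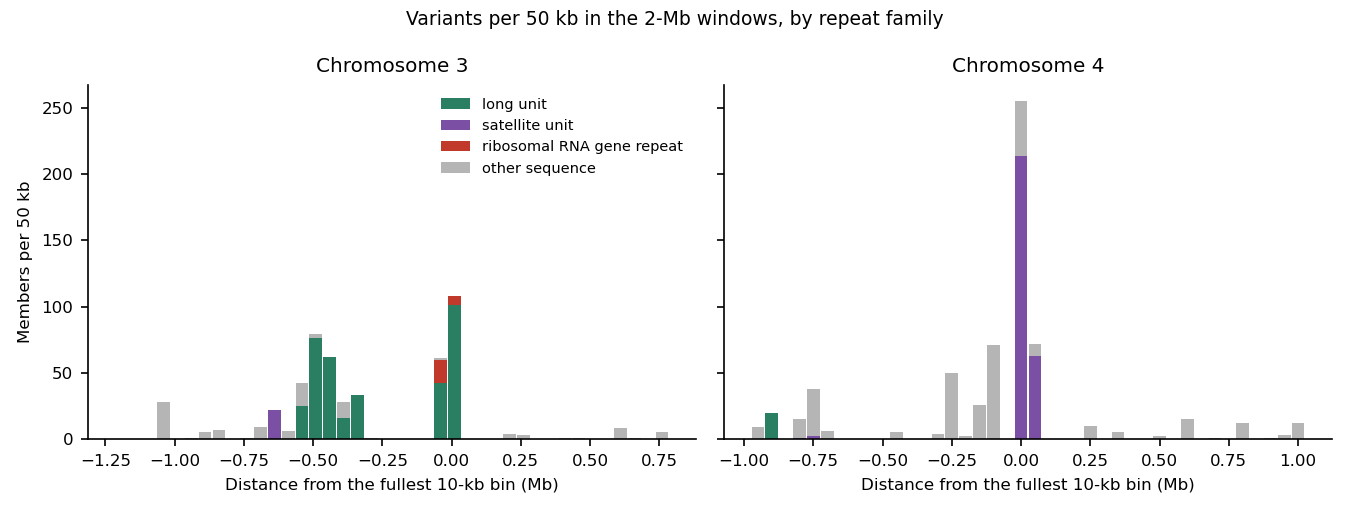
Number of variants per 50-kb bin by repeat family (vertical axis) against distance in Mb from the fullest 10-kb bin, for chromosome 3 (left) and chromosome 4 (right). The long unit makes up most of the fullest chromosome 3 bins, and the satellite unit fills the chromosome 4 peak, whose fullest 50 kb holds 255 variants.

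The 2 centromeres differed in the repeat that carried the variants. Beside 276 of the 516 chromosome 3 variants (53.5%) and 305 of the 634 chromosome 4 variants (48.1%), the surrounding 2 kb matched itself at a lag of 50 to 1000 bases over at least 50% of positions. Of 1000 evenly spaced positions per window, 6.7% on chromosome 3 and 5.1% on chromosome 4 met that condition. On chromosome 3 the commonest repeat lengths were 506, 504, 508 and 505 bases, with 51, 41, 37 and 33 variants, and 178 bases came after them with 18. On chromosome 4 the length was 178 bases at 262 variants and 498 bases at 16.

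Alignment of these units to the windows gave 4 families, which were defined after the variants' positions had been seen and carry no test. On chromosome 3 the long unit held 355 variants (68.8%), other sequence 114 (22.1%), the ribosomal RNA gene repeat 25 (4.84%) and the satellite unit 22 (4.26%). On chromosome 4 the satellite unit held 280 variants (44.2%), other sequence 334 (52.7%) and the long unit 20 (3.15%). The long unit covered 9.92% of the chromosome 3 window, and the satellite unit 3.56% of the chromosome 4 window. The long unit had 1.79 variants per kb on chromosome 3 and 2.76 on chromosome 4, and the satellite unit 1.82 on chromosome 3 and 3.93 on chromosome 4. Of these repeats the chromosome 4 satellite was the densest in variants, and the chromosome 3 long unit covered the most sequence.

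The long unit occurs as related but distinct copies beside both centromeres. Matches to the chromosome 3 and to the chromosome 4 long unit were counted together, so a copy can count more than once. They numbered 847 in the chromosome 3 window, at a median identity of 86.6%, and 30 in the chromosome 4 window, at 88.8%. These identities mix matches within a chromosome and between chromosomes. The chromosome 4 unit alone had 421 matches in the chromosome 3 window. The chromosome 5 window held 293 matches, counted in the same way, and the chromosome 1 window none. Arrays of 5S ribosomal RNA genes are known beside centromeres 3, 4 and 5 in Arabidopsis. The annotation used here names no gene class for this unit, and the unit was not compared with a 5S gene sequence, so none is given to it. The family named ribosomal RNA gene repeat is only what matched the first 10000 bases of chromosome 2. Its name does not mean that the long unit is free of ribosomal RNA genes.

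**Figure D2:**
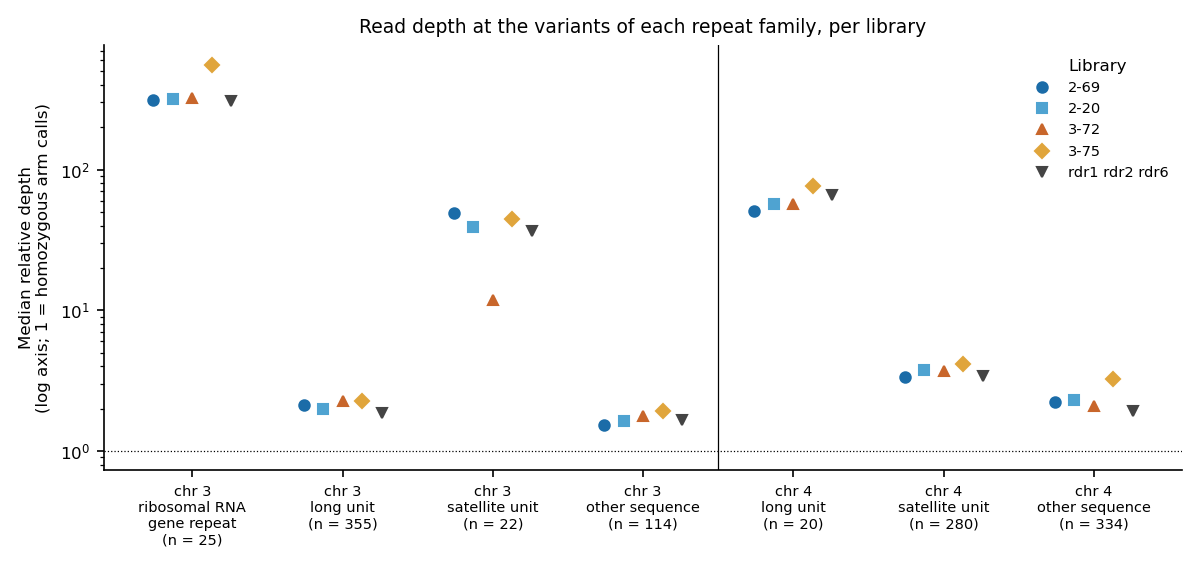
Median relative depth (log axis; read depth divided by the library's median at homozygous arm calls) of the variants called in each library, by chromosome and family. The ribosomal RNA gene repeat lies between 307 and 555, the chromosome 4 long unit between 50.8 and 76.3, and the long unit of chromosome 3 between 1.87 and 2.27.

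Read depth is given relative to each library's median depth at 329 calls that were homozygous in all 5 libraries on the chromosome arms, over 3 Mb from a centromere. Those medians were 25, 16, 11 and 12 reads in 2-69, 2-20, 3-72 and 3-75, and 23 in the library labelled rdr1 rdr2 rdr6. Reads from copies that the reference lacks and extra copies in a plant both raise it, and they cannot be told apart here. The highest depth of any call was 7992, 7944, 7954 and 7961 reads in 2-69, 2-20, 3-72 and 3-75. It was 7982 in the library labelled rdr1 rdr2 rdr6. These maxima lay close together, while the arm medians ran from 11 to 25 reads. Calls of the set that exceeded 7000 numbered 26, 4, 1 and 11 in the lines and 17 in that library. Whether a limit on depth was set upstream is not given in the sources used here and was not tested. Values above 7000, and the relative depths taken from them, may therefore be too low.

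Variants on chromosome 3 were shallower than those on chromosome 4 in every library. On chromosome 3 the median relative depth was 2.16 in 2-69, 2.0 in 2-20, 2.27 in 3-72, 2.33 in 3-75 and 1.98 in the library labelled rdr1 rdr2 rdr6. On chromosome 4 it was 2.76, 2.88, 2.73, 3.67 and 2.61 in the same order. The chromosome 3 values and the chromosome 4 values did not overlap. The difference in log2 relative depth, chromosome 3 minus chromosome 4, was -0.35 in 2-69, -0.52 in 2-20, -0.26 in 3-72, -0.65 in 3-75 and -0.40 in the library labelled rdr1 rdr2 rdr6. Alignment names in the headers share a prefix in 2-69, 2-20 and the library labelled rdr1 rdr2 rdr6 and differ in 3-72 and 3-75, and the difference was negative on either side of that split. The mean was -0.44 ± 0.15 (SD, n = 5 libraries). An exact two-sided sign-flip permutation test over the libraries gave p = 0.0625, the smallest that 5 libraries allow, so this design cannot reach 0.05. The difference was smaller, -0.092, among calls with quality of at least 50 and at least 10 reads, and it was again negative in 5 of 5 libraries.

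The depth came from different families. The 25 variants in the ribosomal RNA gene repeat, all on chromosome 3, had a median relative depth of 314 in 2-69, 315 in 2-20, 323 in 3-72, 555 in 3-75 and 307 in the library labelled rdr1 rdr2 rdr6. Line 3-75 stood above the other 4 libraries. In reads these medians were 7851, 5042, 3553, 6665 and 7071. In the library labelled rdr1 rdr2 rdr6, 13 of the 23 variants compared with 3-75 had over 7000 reads. The median of 2-69, 7851 reads, also lay above 7000. The excess of 3-75 over 2-69 and over that library thus rests in part on values that may be too low. In the whole set 26 calls of 2-69, 4 of 2-20, 1 of 3-72 and 11 of 3-75 exceeded 7000.

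The chromosome 4 long unit was also deep, and its chromosome 3 relative was not. The 20 chromosome 4 variants had median relative depths of 50.8, 56.9, 56.5 and 76.3 in 2-69, 2-20, 3-72 and 3-75, and 66.2 in the library labelled rdr1 rdr2 rdr6. The 355 chromosome 3 variants of the long unit had 2.12, 2.0, 2.27, 2.25 and 1.87 in the same order. The chromosome 4 satellite had 3.36, 3.75, 3.73, 4.17 and 3.41, between those families in every library. Other sequence on chromosome 4 had 2.24, 2.31, 2.09, 3.25 and 1.91. The lowest family was other sequence on chromosome 3, at 1.52, 1.62, 1.77, 1.92 and 1.65. The chromosome 3 satellite had medians of 48.9, 38.8, 11.8, 44.2 and 36.8, but 11 of its 22 variants had a call over 1000 reads and the other 11 had none, so those medians describe a mixed set.

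The share of reads that carried the called base is given as a description, since the rule leaves out homozygous calls and so caps it. On chromosome 3 the median share was 38.1% in 2-69, 40.2% in 2-20, 41.8% in 3-72, 41.6% in 3-75 and 39.4% in the library labelled rdr1 rdr2 rdr6. On chromosome 4 it was 40.9%, 42.8%, 43.8%, 44.0% and 40.8% in the same order. The difference, chromosome 3 minus chromosome 4, was -2.23 ± 0.53 percentage points (SD, n = 5) and negative in 5 of 5 libraries. Among calls with quality of at least 50 and at least 10 reads it was -0.44 points and negative in 3 of 5. Single calls ran from 21.6% up to 84.9%. The families differed in the median more than the 2 windows did. In 2-69 it was 53.4% in the ribosomal RNA gene repeat, 38.1% in the long unit, 43.1% in the satellite and 32.4% in other sequence of chromosome 3. In the same library it was 53.1% in the long unit, 46.7% in the satellite and 36.2% in other sequence of chromosome 4. Line 2-69 had the widest span of chromosome 3 families among the 5 libraries. In 3-72 the chromosome 3 families lay closer, at 46.8%, 41.4%, 46.8% and 41.4% in the same order. The chromosome 4 families of 3-72 had 53.6%, 46.7% and 40.9%.

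At the edge of the rule, variants called in exactly 2 libraries had a median quality of 15.6 on chromosome 3 and 17.2 on chromosome 4. Those called heterozygous in a single library, just outside it, had 12.3 on both. The median shares were 33.2% just inside and 33.3% just outside on chromosome 3, and 30.6% and 30.8% on chromosome 4. The edge of the set was thus made of calls of low quality on either side.

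A series of 14 variants shows one repeat unit across the chromosome 4 long array. In each of 14 copies a T to G change falls in the same 31-base context, from 3054677 to 3061120, and 12 of the 13 spacings are 498 bases and the other is 467. All 14 were called in all 5 libraries. The context of the first is shown with the changed base in capitals.
Chromosome 4 T to G series, first copy, chr4:3054662-3054692: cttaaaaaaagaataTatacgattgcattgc
The G share was 53.1%, 52.6%, 53.5% and 53.8% (medians of the 14 copies) in 2-69, 2-20, 3-72 and 3-75, and 52.0% in the library labelled rdr1 rdr2 rdr6. Over all copies and libraries it ran from 46.1% to 61.1%. Depth varied much more: T3054677G had 6838, 4044, 2854 and 4366 reads in the 4 lines and 6115 in the library labelled rdr1 rdr2 rdr6. T3058132G, the shallowest copy, had 865, 613, 372 and 535 reads in the lines and 811 in that library. The last copy, T3061120G, returned to 4175, 2610, 1964 and 2448 reads in the lines and 3899 in that library. The first 2 copies and the last were the deepest 3 in every library.

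**Figure D3:**
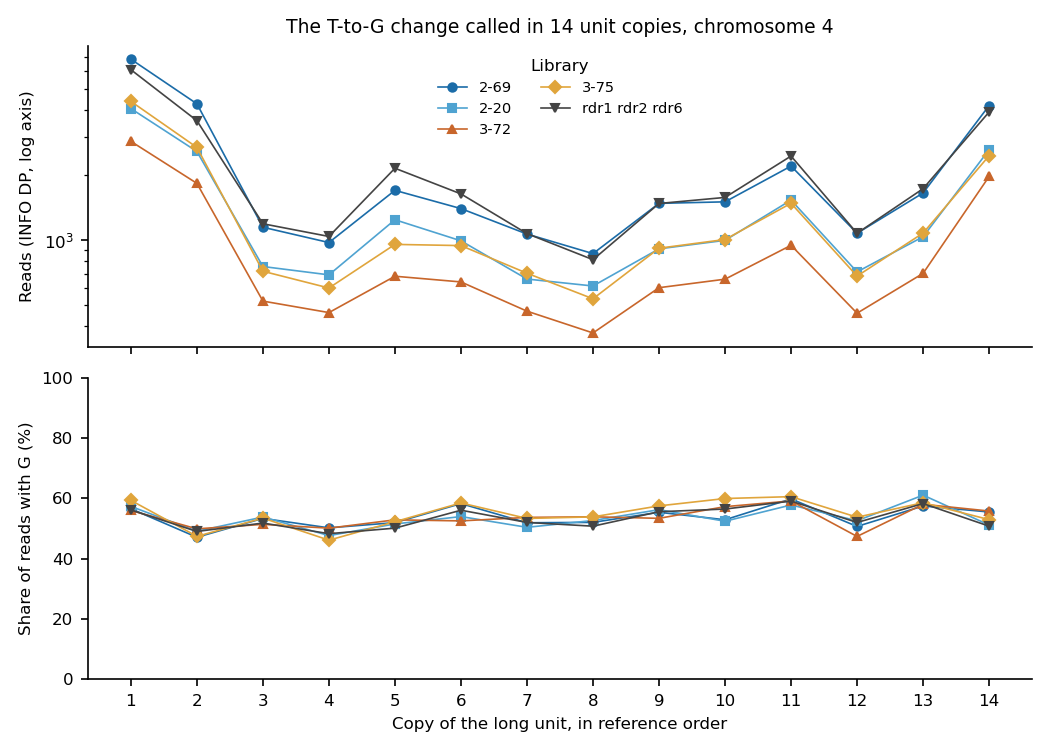
Depth (upper panel, log axis) and share of G reads (lower panel, 0 to 100%) of the T to G change in the 14 copies of the 498-base unit, one line per library. Depth is highest at the first 2 copies and the last, and the share stays between 46.1% and 61.1% in all of them.

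Changes repeated in the same sequence context were common on both chromosomes. On chromosome 3, 68 groups of variants with the same change in the same 31 bases, read on either strand, held 168 variants, and the largest held 10. On chromosome 4, 56 groups held 157 variants, and the largest was the series above. The 10 of the chromosome 3 group lie in the long unit and change C to A on the strand shown, or G to T where a copy runs the other way, from 13684290 to 14224416, 4 of them called in all 5 libraries. The next largest of chromosome 4 changes T to C, on the strand shown, in the satellite at 9 positions from 3968032 to 4010425, 6 of them called in all 5. The contexts are shown with the changed base in capitals.
Chromosome 3 C to A group, first copy, chr3:13684275-13684305: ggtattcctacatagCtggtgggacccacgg
Chromosome 4 T to C group, first copy, chr4:3968017-3968047: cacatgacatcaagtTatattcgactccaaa
Only 6 groups, with 14 variants, held variants of both chromosomes.

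The ribosomal RNA gene repeat on chromosome 3 also showed its unit. In 6 pairs the same change lay 10409 bases apart, such as C14193272G with C14203681G and T14194175A with T14204584A. Within it 0 of 25 variants lay in the annotated 18S gene AT3G41768 (14197677 to 14199484) and 0 in the 5.8S gene AT3G41979 (14199753 to 14199916). Those genes span 1808 and 164 bases, and the repeat covers 13.1 kb. The annotated misc_RNA features AT3G06365 (14200215 to 14204208) and AT3G00660 (14193205 to 14193697) held 5 and 4 variants. C14199738T, which had the highest median depth in the repeat over the 5 libraries, lies between the 18S and 5.8S genes in the annotated lncRNA AT3G06355. It had 7955, 7109, 5658 and 7959 reads in 2-69, 2-20, 3-72 and 3-75 and 7949 in the library labelled rdr1 rdr2 rdr6. The called base made up 65.0%, 59.8%, 59.8% and 61.6% of high-quality reads in the lines and 61.4% in that library. The 5 shares lay within 5.23 percentage points. The 41 bases around it and around the satellite variant of highest median depth on each chromosome follow, with the changed base in capitals.
Ribosomal RNA gene repeat C14199738T, chr3:14199718-14199758: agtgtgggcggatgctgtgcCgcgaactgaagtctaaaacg
Satellite unit T13591717C, chr3:13591697-13591737: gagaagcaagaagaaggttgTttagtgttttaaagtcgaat
Satellite unit C3953608G, chr4:3953588-3953628: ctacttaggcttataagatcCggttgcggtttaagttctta

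Those satellite variants behaved likewise. T13591717C of chromosome 3 had 7938, 7916, 6521 and 7933 reads in 2-69, 2-20, 3-72 and 3-75 and 7865 in the library labelled rdr1 rdr2 rdr6, with shares of 53.4%, 57.0%, 54.8%, 56.2% and 54.8%. C3953608G of chromosome 4 had 7963, 6714, 3888, 6643 and 7982 reads in that order, with shares of 51.0%, 53%, 52.4%, 55.9% and 55.8%. Both lie between annotated genes, and the 5 shares of each lay within 5 percentage points of one another.

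The variants with the highest shares were not the deepest. On chromosome 3 the satellite variant G13589121A had shares of 73.8%, 70.1%, 67.8% and 78.2% in 2-69, 2-20, 3-72 and 3-75 and 75.9% in the library labelled rdr1 rdr2 rdr6. The long-unit variant T13709502C had 78.7%, 72.9%, 81.5%, 70.2% and 69.8% in that order. In both, every library read the called base more often than the reference base. On chromosome 4 the satellite variant G3999923T had 54.8%, 71.4%, 81.8%, 83.3% and 76.3%, on 42, 14, 11, 24 and 38 high-quality reads. A3850728G, between annotated genes, had 75%, 72.5%, 79.5%, 74.6% and 75.3%. It had 4 reference copies of its called 41 bases, against 1 with the reference base, and its shares lay within 7.05 points.
Satellite unit G3999923T, chr4:3999903-3999943: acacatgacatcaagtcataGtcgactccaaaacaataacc
Other sequence A3850728G, chr4:3850708-3850748: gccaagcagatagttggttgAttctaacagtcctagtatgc

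Many variants spread more than the deepest ones did. Of the variants called in all 5 libraries with at least 20 high-quality reads in each, 38 of 140 on chromosome 3 and 59 of 237 on chromosome 4 had shares that ranged over more than 20 percentage points. The median range was 14.3 points on chromosome 3 and 15.4 on chromosome 4. The spread over that of binomial counting had a median ratio of 1.37 on chromosome 3 and 1.13 on chromosome 4. The largest range on chromosome 3 was 45.0 points at T13699964G, with shares of 46.5%, 40%, 70% and 25% in 2-69, 2-20, 3-72 and 3-75 and 27.5% in the library labelled rdr1 rdr2 rdr6. The largest on chromosome 4 was 42.1 points at C3988665G, with 31.2%, 33.3%, 68.2%, 26.1% and 31.4% in the same order. Each rests on 20 to 48 reads per library. In both, line 3-72 was the highest. C13801096A and T13755124C, also in the chromosome 3 long unit, ranged over 43.3 and 40.4 points. C13801096A had shares of 66.2%, 50.9%, 64.2%, 22.9% and 48.2% in the same order, and its reference 41 bases occurred 76 times in the reference, against 2 times for the called ones. T13755124C had 66.7%, 45.5%, 82.6%, 56.5% and 42.2%, with the copies the other way round, 3 of the reference base and 86 of the called base.
Long unit T13699964G, chr3:13699944-13699984: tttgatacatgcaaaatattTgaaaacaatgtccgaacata
Other sequence C3988665G, chr4:3988645-3988685: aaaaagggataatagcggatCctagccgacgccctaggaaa
The share of 1 library correlated with that of another across the variants called in all 5, at 0.47 to 0.67 on chromosome 3 (181 variants) and 0.59 to 0.72 on chromosome 4 (293 variants). These are descriptions, since the variants share reads.

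Neither of the 2 substitution measures tested between the centromeres passed 0.05. G/C to A/T changes were 120 of 516 on chromosome 3 (23.3%) and 124 of 634 on chromosome 4 (19.6%), a difference of 3.70 percentage points (Fisher's exact test, adjusted p = 0.15). Transitions were 56.8% (293) and 54.1% (343), a difference of 2.68 points (adjusted p = 0.372). A/T to C/G changes made up 9.88% (51) on chromosome 3 and 16.9% (107) on chromosome 4, of which 14 are the T to G series. Among the 969 variants that meet the same rule on the arms, transitions were 69.7%. There the transition to transversion ratio was 2.30, against 1.31 on chromosome 3 and 1.18 on chromosome 4. G/C to A/T changes were 21.2% of the 1150 centromere variants (244) and 25.2% of the arm variants (244 of 969), with an adjusted p of 0.0590 that misses 0.05. It passed without line 3-72 (adjusted p = 0.0467), with calls of at least 10 reads (0.0376), in narrower windows (0.0297) and with arms from 5 Mb (0.0427). The adjustment counts 2 comparisons on sharing that lower these values, so those nearest 0.05 may not pass without them. Among calls with quality of at least 50 and at least 10 reads the difference turned to 0.41 points. Variants closer than a read length share reads, so these p-values describe sets of variants and not independent events.

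The called base was found elsewhere in the reference for most variants. The 41 bases around a variant, with the called base in the middle, occurred elsewhere in the reference genome for 315 of 516 variants on chromosome 3 (61.0%) and 423 of 634 on chromosome 4 (66.7%). The difference of -5.67 points had a Fisher's exact p of 0.0480 before adjustment and an adjusted p of 0.0673. On the arms the share was 75.9% (735 of 969), and for all 1150 variants 64.2% (738), a difference of -11.7 points (adjusted p = 1.89e-08). That call was lost among variants with quality of at least 50 and at least 10 reads, where the difference was -1.46 points (adjusted p = 0.925). With 31 bases in place of 41 the difference between the chromosomes was -8.11 points and passed the test (adjusted p = 0.00425), and with words of a read length it was -6.02 (adjusted p = 0.0478). That last value is lowered by the comparisons on sharing in the adjustment and may not pass without them. Among the calls of higher quality the difference between the chromosomes was -11.1 points, 53.1% on chromosome 3 and 64.2% on chromosome 4 (adjusted p = 0.0710). Without line 3-75 it was -7.31 points with 41 bases and also passed (adjusted p = 0.0278). Copies near the variant gave the opposite order: 54.2% of the 1150 had a copy within 1 Mb, against 29.9% (290) of the arm variants. Within 1 Mb were copies for 258 variants of chromosome 3 and 365 of chromosome 4 (57.6%). The 41 bases with the reference base occurred more than once for 63.2% of chromosome 3 variants and 52.1% of chromosome 4 variants. At 201 chromosome 3 variants (39%) and 211 chromosome 4 variants (33.3%) no copy in the reference held the called base.

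**Figure D4:**
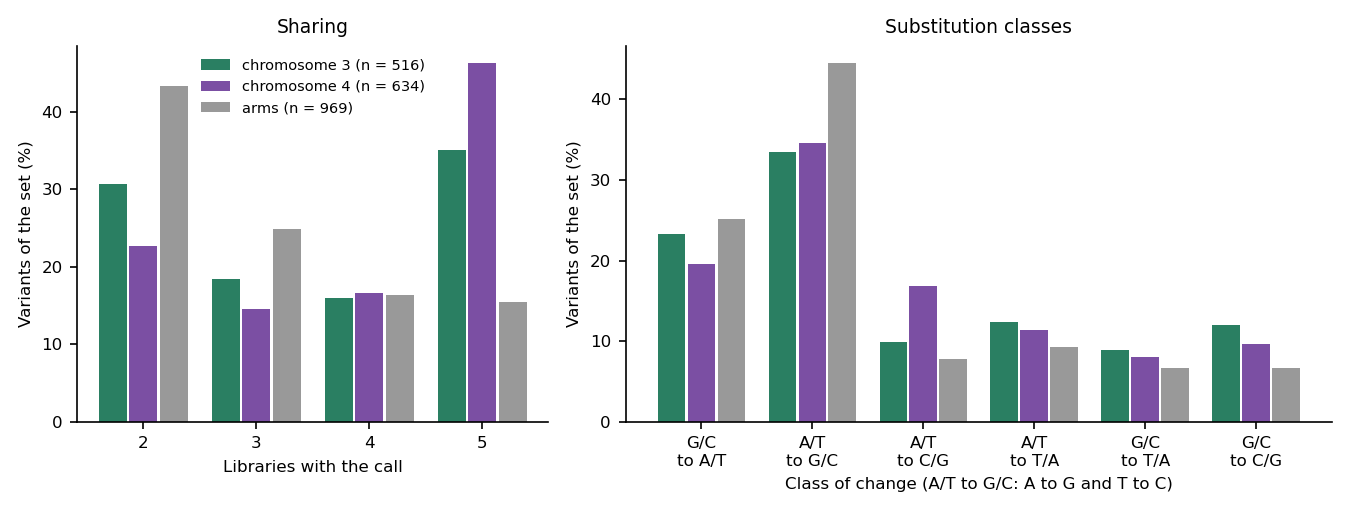
Left, percent of variants called in 2 to 5 libraries; right, percent in 6 substitution classes; for chromosome 3, chromosome 4 and the arm variants that meet the same rule. Called in all 5 were 35.1%, 46.2% and 15.5% of them.

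Sharing among libraries is partly fixed by the rule and is described without a test. Called in 2, 3, 4 and 5 libraries were 158, 95, 82 and 181 of the chromosome 3 variants (5 libraries, 35.1%, 95% Wilson interval 31.1% to 39.3%) and 144, 92, 105 and 293 of the chromosome 4 variants (46.2%, 42.4% to 50.1%). The difference in the share called in all 5, chromosome 3 minus chromosome 4, was -11.1 points, and -3.92 among calls with quality of at least 50 and at least 10 reads. By family the share in all 5 was 92% in the ribosomal RNA gene repeat, 36.1% in the long unit, 45.5% in the satellite and 17.5% in other sequence of chromosome 3. On chromosome 4 it was 90% in the long unit, 52.1% in the satellite and 38.6% in other sequence. The families of relative depth over 50, the ribosomal RNA gene repeat and the chromosome 4 long unit, had the highest shares. The library labelled rdr1 rdr2 rdr6 lacked 130 chromosome 3 and 119 chromosome 4 variants, and as the only library to lack them it lacked 10 and 15. The same count was 15, 13, 24 and 20 on chromosome 3 and 29, 13, 32 and 16 on chromosome 4 for 2-69, 2-20, 3-72 and 3-75, so variants present in the 4 lines alone were no more frequent than those missing in a single line, other than on chromosome 4 in 2-20. In the chromosome 1 and chromosome 5 windows 24.3% and 41.4% of the variants were called in all 5.

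Most variants lay between annotated genes, and the rest mostly in pseudogenes. On chromosome 3, 429 (83.1%) lay between genes and 62 (12%) in pseudogenes, and on chromosome 4, 482 (76.0%) and 149 (23.5%). Genes or pseudogenes span 48.9% of the chromosome 3 window and 48.6% of the chromosome 4 window. The fullest feature of chromosome 3 was AT3G00670, an annotated misc_RNA from 14212915 to 14214126 with 12 variants, all in the long unit. Pseudogenes AT3G33084 and AT3G33100, both outside the repeat families, held 10 and 7. The fullest of chromosome 4 were the pseudogenes AT4G06656, 3841927 to 3850392, and AT4G06666, 3872762 to 3875569, with 15 each, of which 7 and 8 were called in all 5 libraries. In AT4G06656 the median relative depth was 2.46, 3.19, 3.18 and 6.17 in 2-69, 2-20, 3-72 and 3-75 and 2.87 in the library labelled rdr1 rdr2 rdr6. The 11 variants of AT4G06664 had 3.12, 3.41, 3.09, 5.62 and 2.30 in that order. Line 3-75 was the highest in both. The only protein-coding changes were 2, both in AT3G41762, an uncharacterized protein gene on the minus strand inside the ribosomal RNA gene repeat. A14195933G changes S77P (residues counted from the start of the protein), with shares of 48.6%, 48.2%, 48.9% and 50% in the lines and 48.9% in the library labelled rdr1 rdr2 rdr6. T14196455C changes N4D, with shares of 51.3%, 39.4%, 38.9%, 41.1% and 35.7% in that order. Chromosome 4 had none.

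Variants whose share or depth differed between a line and the library labelled rdr1 rdr2 rdr6 were counted with 1 library on each side, so no test applies. A share was called different at 20 percentage points or more, with at least 20 high-quality reads in both libraries. The genome percentages cover only variants that met that read limit and were homozygous in neither library, the variants described here included. In 2-69, 15 variants had a higher share and 15 a lower one, of 667 compared; over all variants of the genome 2.3% were higher and 3.68% lower. In 2-20 the counts were 13 and 10 of 622 (genome 3.08% and 2.2%), in 3-72, 20 and 16 of 486 (3.56% and 3.44%), and in 3-75, 10 and 14 of 570 (3.04% and 2.47%). As shares of the variants compared these ran from 1.61% to 4.12%, and they were below the genome's percentage in every line and direction but the higher shares of 3-72. The counts sum to 113.

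For depth a 2-fold difference was called, with no minimum of reads. The genome percentages here cover all variants called in both libraries, homozygous calls included. In 2-69, 8 variants were higher and 1 lower of 695 (genome 1.27% and 1.94%), in 2-20, 5 and 3 of 729 (1.53% and 1.8%), and in 3-72, 10 and 8 of 647 (2.01% and 3.49%). In 3-75, 49 were higher and 4 lower of 701 (genome 10.2% and 3.42%). The 49 are 6.99% of the variants compared, under the genome's share. In every line and direction the share was below the genome's. The variants described here were deeper in every library than the arm variants that meet the same rule. Low depth makes a 2-fold difference easier to reach by counting error, and its part in these shares was not tested. The counts sum to 88 over the 4 lines. With the set chosen again from the 4 libraries other than 3-75, the other 3 lines gave 37. Of the 49, 12 of 281 compared lay on chromosome 3 and 37 of 420 on chromosome 4, and 35 lay in other sequence of chromosome 4, where 199 were compared. Over all variants of the genome 3-75 had a median log2 relative depth 0.27 above the library labelled rdr1 rdr2 rdr6, with 0.20 on the arms, against 0.25 for the variants described here. The medians of the other lines were 0.03, 0.03 and -0.02 over the genome. By family, 3-75 stood 0.94 above it in the ribosomal RNA gene repeat, 0.06 in the chromosome 3 long unit, 0.20 in the chromosome 4 satellite and 0.45 in other sequence of chromosome 4. The alignment-name prefix of 3-75 differs from that of the library labelled rdr1 rdr2 rdr6, and its part in these counts was not tested.

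**Figure D5:**
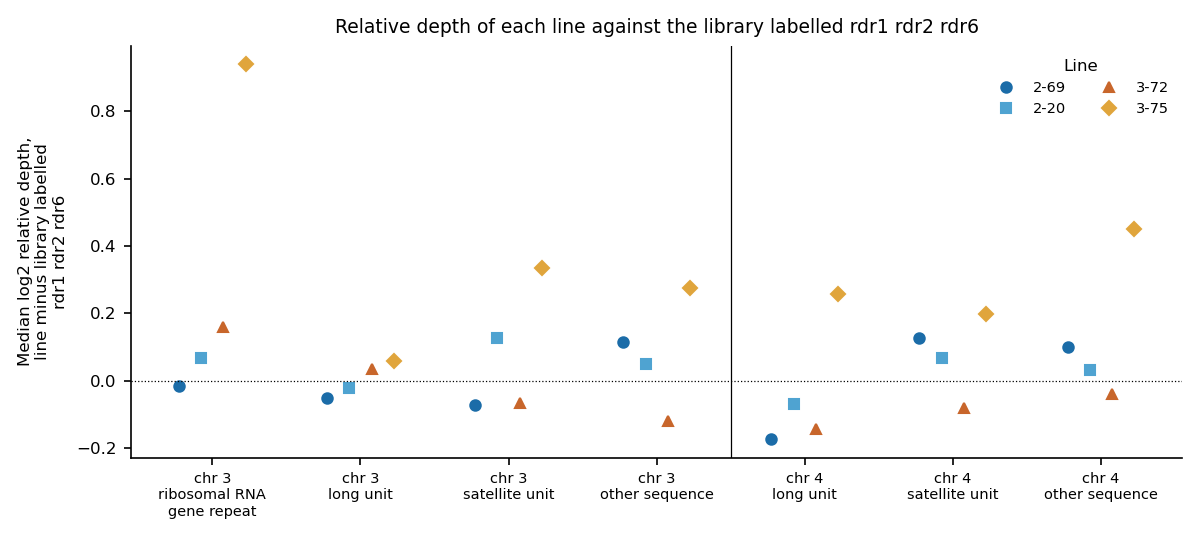
Median log2 relative depth of each line minus the library labelled rdr1 rdr2 rdr6, by family with at least 10 variants compared. Line 3-75 lies at 0.94 in the ribosomal RNA gene repeat and at 0.06 in the chromosome 3 long unit.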

How the data were processed

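The deposited SNP files are VCF version 4.1 and name samtools 0.1.19-44428cd, per the file headers; Bismark, Bowtie and the build TAIR10 are named by the submitters' processing notes. Each call gives read counts: total depth and 4 high-quality counts by base and strand, deposited as made by the authors. The quality is a phred-scaled score given by the authors' caller per call, and every call had a mapping quality of 20. Alternative-read share is the high-quality reads with the called base over all high-quality reads. Relative depth is the depth over the library's median at 329 homozygous arm calls. Members, families and context groups were chosen with earlier results of these data known; the rule for named variants and features took those with the highest depth, share and range, and the features with most members.

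Families came from blastn 2.17.0 (e-value 1e-10, matches of at least 100 bases) with 1 copy of each unit and the first 10000 bases of chromosome 2 as queries. Shares of variants were compared with Fisher's exact test, two-sided, adjusted by the Benjamini-Hochberg method over 7 comparisons, of which the 2 on sharing are not given because the rule used sharing; libraries used exact sign-flip tests. Intervals are 95% Wilson intervals and cover counting error only. Python 3.11.15, numpy 2.4.6, pandas 2.3.3, scipy 1.17.1, Biopython 1.88 and matplotlib 3.10.9 were used, and scripts were tested on simulated data. Alternatives left out each library, tightened quality and read limits, thinned neighbouring variants, and changed windows, word length and thresholds. The other samples of the series were not used here.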

Additional observations from a re-analysis of the deposited data

Results flagged for a closer look

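Among the 4 lines, 3-75 stood apart from the other 3 in 4 of 60 sets of values that were checked for a sample far from the rest. Chance flags about 1 in 20 such sets, and the sets share libraries. Median relative depth on chromosome 4 was 3.67 in 3-75, against 2.73 to 2.88 in the other lines. In the ribosomal RNA gene repeat of chromosome 3 it was 555, against 314 to 323. The 314 belongs to 2-69, whose median there of 7851 reads lies above 7000 and may be too low. Variants with at least 2-fold higher relative depth than in the library labelled rdr1 rdr2 rdr6 numbered 49, against 5 to 10; these were 6.99% of those compared, below the 10.2% over all variants of the genome, where the other lines had 1.27% to 2.01%. Among the arm variants that meet the same sharing and zygosity rule, the median of 3-75 was also the highest of the 4 lines. It was 1.75 there, against 1.44 to 1.45. Among those of the chromosome 5 window it was 2.83, against 2.09 to 2.16. The relative depth of T3055175G was 223, against 160 to 170. The cause was not tested.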

How the results depend on the processing

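Of 166 alternatives under 19 settings, 143 kept the direction and side of the threshold, 11 moved, 7 became stronger, 3 weaker and 2 reversed; the cause was not tested. Some of the 143 could not have changed: no variant has more than 1 called base, another depth scaling cancels between chromosomes, and sign-flip tests of 5 libraries cannot reach 0.05. With quality of at least 50 and 10 reads, 179 variants remained on chromosome 3 and 296 on chromosome 4, the difference in the share called in all 5 was -3.92 points, that of the called 41-mer against the arms was -1.46 (adjusted p = 0.925), and that of G/C to A/T against the arms was 0.41. The counts of different shares and depths were 36 and 19. With 1 variant per read length the transition difference was -0.45 and the share count 70. In the 3 libraries that share an alignment-name prefix the difference in the share called in all of them was -4.62, with counts of 53 and 35. The 41-mer difference between chromosomes passed the threshold at -8.11 with 31 bases and -6.02 with words of a read length. G/C to A/T against the arms was -4.39 with at least 10 reads, -4.66 in narrower windows and -4.64 with arms from 5 Mb, past the threshold in each. Crossings nearest the threshold may not hold without the comparisons on sharing in the adjustment. At 30 points the share count was 11, by Fisher's test 44, and at 1.5-fold the depth count was 414.

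Leaving out each library gave 445 to 464 variants on chromosome 3 and 571 to 587 on chromosome 4, relative depth differences of -0.50 to -0.40, share differences of -2.54 to -1.80, G/C to A/T differences of 2.63 to 4.24, transition differences of 1.02 to 3.52 and all-5 differences of -13.5 to -8.74. The 41-mer differences were -7.31 to -5.68 between chromosomes, past the threshold without 3-75, and -11.1 to -10.3 against the arms. Against the arms G/C to A/T gave -4.30 to -2.91, past it without 3-72 where the adjustment counts the comparisons on sharing, and all-5 25.1 to 30.1. The share count was 77 to 90 and the depth count 37 to 80, the 37 without 3-75; without the library labelled rdr1 rdr2 rdr6 neither count has a value. Family shares, added after the data were seen, ran from 66.4% to 77.5% for the chromosome 3 long unit and 38.0% to 55.2% for the chromosome 4 satellite. No paired analysis was possible because each line has a single library and the groups share fewer than 2 replicate numbers; the chromosome differences were taken within libraries. Low depth in 3-72 and 3-75, and depths above 7000 reads that may be too low, limit the precision.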
